A study of Arabidopsis thaliana with 4 samples.

Results

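The 10 genes described here carry out nitrate uptake, nitrate reduction and nitrate signalling in Arabidopsis thaliana, and H3K4me3, the trimethylation of lysine 4 of histone H3, was read at each of them. They were taken by their TAIR10 locus from 27444 nuclear protein-coding genes of the annotation. They comprise the transporters NRT1.1 (AT1G12110), NRT1.5 (AT1G32450) and NRT2.1 (AT1G08090), the reductases NIA1 (AT1G77760), NIA2 (AT1G37130) and NIR1 (AT2G15620), and the regulators NLP7 (AT4G24020), LBD37 (AT5G67420), LBD38 (AT3G49940) and LBD39 (AT4G37540). For each gene, peaks were collected from 1 kb upstream of the transcription start site (TSS) to the gene end.

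H3K4me3 was profiled by CUT&Tag, in which an antibody tethers a transposase to the mark so that fragments around it are cut out and sequenced. The stress group had 2 libraries (replicates 1 and 2) from wild-type Col-0 roots under osmotic stress, and the control group had 2 libraries from Col-0 roots without it. Plants grew for 10 days on half-strength medium, which held 250 mM sorbitol for the stress group. The study took root tips of 5 mm for its isolated nuclei and RNA, and its methods do not give the length used for CUT&Tag. The study calls the libraries of a group biological replicates. Neither it nor the labels say whether they came from separate cultures, so the p-values measure the spread between these libraries only.

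Nitrate enters root cells through NRT1.1, which is both a transporter of dual affinity and a nitrate sensor, and through NRT2.1, a high-affinity transporter, whereas NRT1.5 loads nitrate into the xylem. Inside the cell the nitrate reductases NIA1 and NIA2 convert nitrate to nitrite, and the nitrite reductase NIR1 converts nitrite to ammonium in plastids. NLP7 is a transcription factor that starts the nitrate response, and LBD37, LBD38 and LBD39 are related repressors that are induced by nitrogen and hold back genes of nitrate use. H3K4me3 usually sits at the 5′ part of genes that are transcribed.

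The stress libraries (replicates 1 and 2) held 15974955 and 25714827 fragments, against 9011630 and 6396842 in the control libraries. The number of peaks was 14827 and 15839 in the stress libraries, against 13752 and 12742 in the control libraries. Every stress library was deeper than every control library, so depth and condition cannot be told apart in the number, the length or the signal of peaks. Of 10 root marker genes, 7 and 7 held a peak in the stress libraries, against 5 and 3 in the control libraries, and the root markers WOX5, COBL9 and EXPA7 held none in any library. Of 10 shoot marker genes, 1 held a peak in each library. In bulk roots, fewer cells that carry the mark at a gene and less of the mark per cell cannot be told apart.

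The sequences shown first are the 300 bp upstream of the TSS of the 4 genes whose signal passed the test reported further on, read from the TAIR10.1 reference of RefSeq on the strand of the gene. Capitals in LBD38 and LBD39 mark a stretch of 30 bases that resembles a stretch of LBD37 and is compared with it later.
NRT1.1 (chr1:4104923-4105222, + strand): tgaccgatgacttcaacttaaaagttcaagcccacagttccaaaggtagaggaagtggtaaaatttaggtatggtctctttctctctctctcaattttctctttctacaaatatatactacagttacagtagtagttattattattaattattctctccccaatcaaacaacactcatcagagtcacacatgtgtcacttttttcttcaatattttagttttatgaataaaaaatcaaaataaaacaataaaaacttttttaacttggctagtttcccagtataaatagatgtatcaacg
LBD37 (chr5:26906525-26906824, - strand): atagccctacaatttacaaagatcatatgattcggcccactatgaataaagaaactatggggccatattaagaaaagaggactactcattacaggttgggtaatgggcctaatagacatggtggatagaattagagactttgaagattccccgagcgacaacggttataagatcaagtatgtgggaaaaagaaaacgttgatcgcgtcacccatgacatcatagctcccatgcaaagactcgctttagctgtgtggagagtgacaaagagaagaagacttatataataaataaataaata
LBD38 (chr3:18513966-18514265, + strand): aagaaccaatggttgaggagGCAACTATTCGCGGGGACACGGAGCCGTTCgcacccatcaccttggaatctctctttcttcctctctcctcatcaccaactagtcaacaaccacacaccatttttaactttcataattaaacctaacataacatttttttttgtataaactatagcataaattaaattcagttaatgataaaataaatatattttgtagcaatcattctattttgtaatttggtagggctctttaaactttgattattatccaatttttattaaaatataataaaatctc
LBD39 (chr4:17640926-17641225, - strand): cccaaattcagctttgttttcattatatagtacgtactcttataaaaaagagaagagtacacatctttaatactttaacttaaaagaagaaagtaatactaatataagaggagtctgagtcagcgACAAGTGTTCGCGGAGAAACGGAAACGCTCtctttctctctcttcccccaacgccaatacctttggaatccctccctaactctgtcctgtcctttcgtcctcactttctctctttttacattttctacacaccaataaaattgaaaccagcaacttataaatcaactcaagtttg

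Short sequences known from nitrate and LBD regulation were searched on both strands of the same 300 bp window in all 10 genes and in 27443 nuclear protein-coding genes with a full window. CTT and AAG set 10 bases apart, the spacing of the element bound by NLP proteins, were in 9.71% of all windows and in 0 of the 10. The longer form of that element, with TGAC and any base before CTT, was in 0.047% of all windows and in 0 of the 10. GCGGCG, which LBD proteins bind, was in 1.97% of all windows and in 1 of the 10, NRT2.1, at -82 to -77 bp from its TSS. GAATATTC, bound by HRS1 and HHO proteins, was in 1.02% of all windows and in 0 of the 10. The window of LBD37 overlapped the long noncoding gene AT5G09915, and a match or its absence in these letters describes the sequence only.

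H3K4me3 peaks were present at most of the 10 genes, and 2 of the 3 transporters were the exception. All 3 reductases and all 4 regulators had a peak in every library, and so did NRT1.1, which makes 8 of 10 genes. Over all nuclear protein-coding genes the share was 54.3%. With peaks of at least 4-fold enrichment only, 4 of the 10 had a peak in every library, beside 24.9% of all these genes.

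NRT2.1 (chr1:2524023-2526322) held no peak in any library. The nearest peaks lay 7056 and 7302 bp from the gene in the stress libraries, against 7714 and 3070 bp in the control libraries. The other NRT2 genes NRT2.2, NRT2.3, NRT2.4, NRT2.5 and NRT2.6 likewise held no peak in any library, whereas NRT2.7 held a peak in stress replicate 2 only. An absent peak states that the p cutoff of the caller was not passed, not that the mark was absent, and the lowest pileup of any called peak was 0.689 and 0.467 fragments per 1000000 (FPM) in the stress libraries, against 0.888 and 1.41 in the control libraries.

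NRT1.5 (chr1:11715147-11719988) had no peak in stress replicates 1 and 2 and none in control replicate 2. In control replicate 1 it had a peak of 1110 bp, with 43 fragments at a summit in an intron 287 bp after the TSS, which is 4.77 FPM and a fold enrichment of 3.14. The 2 control libraries therefore differed at this gene, and without control replicate 1 NRT1.5 had no peak in any library.

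The signal was compared as the pileup, the number of fragments stacked at the highest point of the peaks in a region, per 1000000 fragments of the library, in FPM. A pileup is a height at 1 base, so genes of different length can be set side by side. Overlapping peaks of any library formed 16070 merged regions, of which the 11925 with a peak in every library entered the fit. Log2 values were tested with limma, and p-values were adjusted by Benjamini-Hochberg over all 11925 regions, with a threshold of 0.05. The fit draws the spread of each region towards that of regions with like signal. A standard error or p-value of a gene therefore does not rest on the spread of its own libraries alone. No start of another gene lay in the region of any of the 8 genes.

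The 8 genes divided into strongly and weakly marked ones, and the order differed between conditions mainly among the strong ones. In the stress libraries the mean pileup in FPM was 26.9 ± 2.61 at NIR1, 23.5 ± 0.964 at LBD39, 23.4 ± 2.45 at NIA2, 20.1 ± 0.317 at LBD38 and 18.2 ± 1.2 at LBD37 (SD, n = 2 each). In the control libraries it was 30.4 ± 1.88 at LBD39, 29.6 ± 0.320 at NIR1, 26.0 ± 2.03 at LBD38, 25.7 ± 1.03 at NIA2 and 24.4 ± 0.396 at LBD37 (SD, n = 2 each). The libraries of NIA2 overlapped those of NIR1 and LBD39 under stress, and in control those of LBD39 overlapped NIR1 and those of LBD38 overlapped NIA2 and LBD37.

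The weakly marked genes kept 1 order in both conditions, NIA1 above NLP7 above NRT1.1, with no overlap between neighbours. Averaged over the 4 libraries, NRT1.1 lay at percentile 2.3 of all tested regions, NLP7 at percentile 15.4 and NIA1 at percentile 37.3. The other 5 genes lay at percentiles from 89.5 for LBD37 to 97.4 for NIR1.

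**Figure D1:**
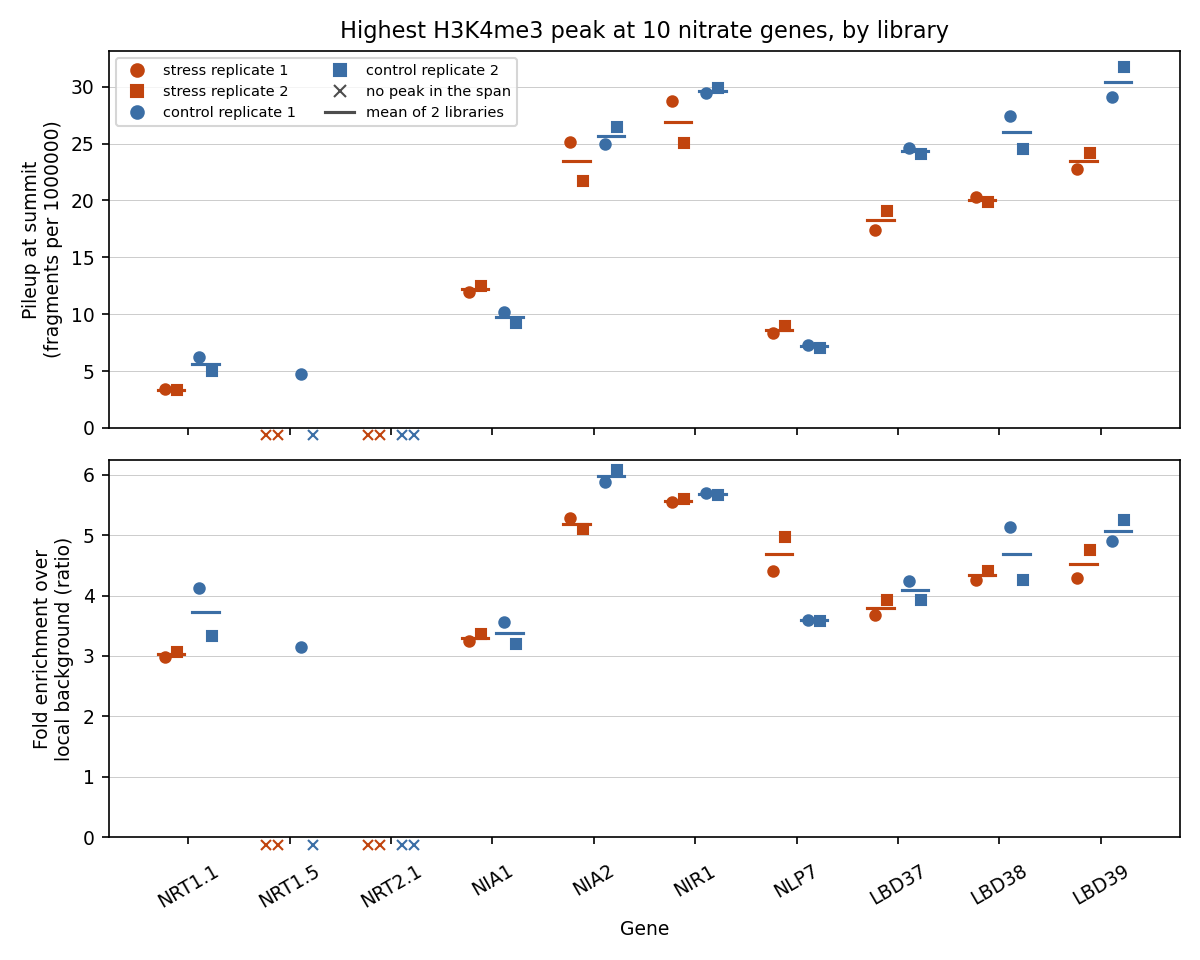
Pileup at the summit in fragments per 1000000 (upper) and fold enrichment over the local background (lower) of the highest peak at each of 10 genes, with 1 point per library, bars at the mean of 2 libraries and crosses where no peak was called. At LBD37, LBD38, LBD39, NRT1.1 and NIR1 both stress libraries lie below both control libraries in the upper panel, and NRT2.1 has no point.

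Osmotic stress went with lower H3K4me3 signal, relative to the fragments of each library, at the nitrate sensor and at the 3 LBD repressors. Such scaling removes a change shared by a whole library, so an absolute loss of the mark was not tested. From the bulk CUT&Tag data, the study reports that the level of this modification rose significantly under osmotic stress. Of the 8 genes tested, 4 fell (NRT1.1, LBD37, LBD38 and LBD39) and 0 rose. Over all tested regions 11.9% fell and 10.2% rose, which is 1419 and 1221 regions. With each library divided by its median signal, 2337 regions fell and 1135 rose, and the same 4 genes fell. At an unadjusted p under 0.05 the counts were 4 lower and 1 higher (NIA1), beside 18.0% lower and 16.9% higher over all regions. The median log2 change of the 8 genes was -0.26, beside 0.01 over all regions.

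NRT1.1 had 3.38 and 3.34 FPM in stress replicates 1 and 2, against 6.21 and 5.0 in control replicates 1 and 2. The groups did not overlap, and the stress libraries lay close together. The log2 change was -0.73 with a standard error of 0.194, which is a ratio of 0.603 (limma, adjusted p = 0.00274). The pileups behind these values were 54 and 86 fragments in the stress libraries, against 56 and 32 in the control libraries, so the gene rested on few fragments in every library. Without control replicate 1 the log2 change was -0.57 and the call was lost (limma, adjusted p = 0.113).

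LBD37 had 17.4 and 19.1 FPM in the stress libraries, against 24.6 and 24.1 in the control libraries. Both stress libraries were below both control libraries, and the gap between the groups exceeded the gap within either of them. The log2 change was -0.42 with a standard error of 0.12 (limma, adjusted p = 0.00611).

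LBD38 had 20.3 and 19.8 FPM in the stress libraries, against 27.4 and 24.5 in the control libraries. The groups did not overlap, although the control libraries differed more from each other than the stress libraries did. The log2 change was -0.37 with a standard error of 0.122 (limma, adjusted p = 0.018).

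LBD39 had 22.8 and 24.1 FPM in the stress libraries, against 29.1 and 31.7 in the control libraries. Again the groups did not overlap. The log2 change was -0.37 with a standard error of 0.126 (limma, adjusted p = 0.0225). The fall of the 3 repressor genes was thus of like size, with ratios of 0.749 at LBD37, 0.773 at LBD38 and 0.772 at LBD39.

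The calls depended on the control libraries. Without control replicate 1, 0 of the 8 genes were called, and the adjusted p of limma was 0.0883 at LBD37, 0.267 at LBD38 and 0.121 at LBD39. Without control replicate 2, 1 was called, NRT1.1, with an adjusted p of 0.00372, and the adjusted p was 0.0653 at LBD37, 0.0712 at LBD38 and 0.299 at LBD39. With stress replicate 1 or stress replicate 2 left out, all 4 were called lower.

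The reductase genes were not called in either direction. NIA1 had 12.0 and 12.4 FPM in the stress libraries, against 10.2 and 9.22 in the control libraries. The groups did not overlap, stress being higher, and the log2 change was 0.33 with a standard error of 0.133 (limma, adjusted p = 0.0581). NIA2 had 25.2 and 21.7 FPM in the stress libraries, against 25.0 and 26.4 in the control libraries, so that the groups overlapped. Its log2 change was -0.14 with a standard error of 0.124 (limma, adjusted p = 0.452).

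NIR1 had 28.7 and 25.0 FPM in the stress libraries, against 29.4 and 29.9 in the control libraries. The groups did not overlap, but the stress libraries differed widely, and the log2 change was -0.14 with a standard error of 0.129 (limma, adjusted p = 0.446). NLP7 had 8.33 and 8.94 FPM in the stress libraries, against 7.32 and 7.03 in the control libraries. The groups did not overlap either, and the log2 change was 0.27 with a standard error of 0.150 (limma, adjusted p = 0.198).

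Counted by overlap alone, the stress libraries were above the control libraries at 2 genes (NIA1 and NLP7) and below them at 5 (NRT1.1, LBD37, LBD38, LBD39 and NIR1, whose change was positive after the cyclic loess scaling described below). Over all tested regions the shares without overlap were 31.8% with stress higher and 29.1% with stress lower. NIA1 and NIA2, which encode the same enzyme activity, therefore had changes of opposite sign under this scaling, though not after cyclic loess or in fold enrichment, but neither change passed the test and the difference between them was not tested.

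**Figure D2:**
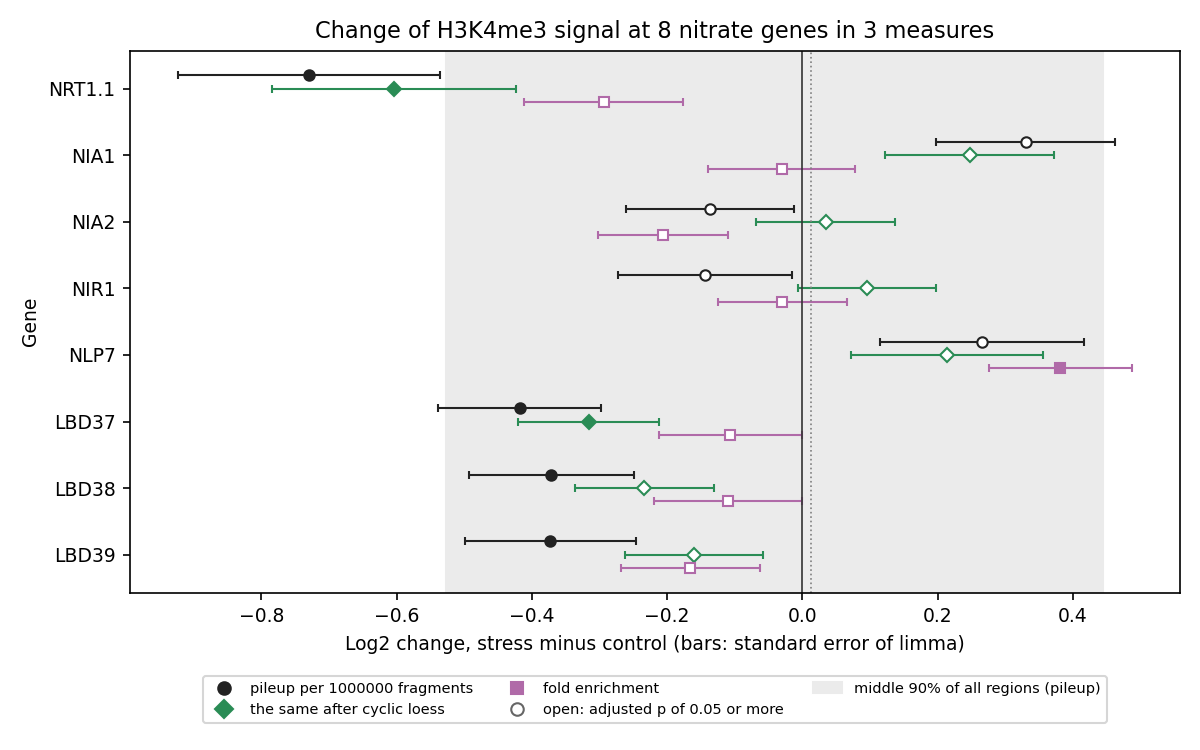
Log2 change of 8 genes, stress minus control, with the standard error of limma, for pileup per 1000000 fragments, the same after cyclic loess, and fold enrichment, over a grey band from -0.53 to 0.44, the middle 90% of all regions in pileup. Filled symbols passed an adjusted p of 0.05, NRT1.1 lies outside the band in pileup and after cyclic loess, and NLP7 alone is filled in fold enrichment.

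The fold enrichment, which divides the pileup by the background around it, gave another picture. Of the 8 genes, 0 fell and 1 rose, NLP7, whereas 5.74% of all regions fell and 9.48% rose in this measure. NLP7 had fold enrichments of 4.40 and 4.96 in the stress libraries, against 3.60 and 3.57 in the control libraries. The log2 change was 0.38 with a standard error of 0.106 (limma, adjusted p = 0.0237). The background at NLP7 was low, 1.84 and 1.77 FPM in the stress libraries, against 1.95 and 1.86 in the control libraries. How far this call depends on the genome size set for the caller, given under the processing, was not tested.

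At the 4 genes that fell in pileup, the log2 change of fold enrichment was also negative but was not called. NRT1.1 had fold enrichments of 2.98 and 3.07 in the stress libraries, against 4.12 and 3.33 in the control libraries, and the log2 change of -0.29 missed the threshold (limma, adjusted p = 0.0938). The log2 change in fold enrichment was -0.11 at LBD37, -0.11 at LBD38 and -0.17 at LBD39, and the adjusted p of limma was 0.511, 0.515 and 0.279 in that order. The local background, taken over as much as 10000 bp around the summit and so including the peak itself, was 4.70 and 4.84 FPM at LBD37 in the stress libraries, against 5.72 and 6.01 in the control libraries. At LBD38 it was 4.71 and 4.47 in the stress libraries, against 5.26 and 5.64 in the control libraries. At LBD39 it was 5.25 and 5.05 in the stress libraries, against 5.85 and 5.92 in the control libraries.

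The background at NRT1.1 was 1.09 and 1.06 FPM in the stress libraries, against 1.42 and 1.39 in the control libraries. At these 4 genes and at NLP7, which makes 5 of the 8, the background of both stress libraries was below that of both control libraries, as it was at 28.2% of all regions. At NIA1 it was higher, 3.65 and 3.67 in the stress libraries against 2.79 and 2.78 in the control libraries, and there the log2 change turned to -0.03 in fold enrichment (limma, adjusted p = 0.875). At NIA2 it was also higher without overlap, by little, at 4.72 and 4.23 in the stress libraries against 4.16 and 4.21 in the control libraries. The share of all regions with a higher background under stress was not counted.

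A scaling that also removes a trend with signal strength, cyclic loess, was added after the data were seen. It kept 2 calls, with log2 changes of -0.60 at NRT1.1 (limma, adjusted p = 0.0065) and -0.32 at LBD37 (limma, adjusted p = 0.015). LBD38 at -0.23 (limma, adjusted p = 0.0831) and LBD39 at -0.16 (limma, adjusted p = 0.256) were not called. The strongly marked reductase genes changed sign, to 0.03 at NIA2 and 0.10 at NIR1, neither of them called.

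Peaks sat at different places along the 10 genes. At NIA2, NIR1, NLP7, LBD38 and LBD39 every library had a peak that covered the TSS, with the summit 95 to 808 bp downstream. The peak of NIA1 also covered the TSS in every library, with summits given below. LBD38 (chr3:18514266-18516131) was covered over 99.5% to 100% of its length and LBD39 (chr4:17639393-17640925) over 100% in every library. These are the shortest genes of the set, at 1866 and 1533 bp.

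The peak of NRT1.1 (chr1:4105223-4109601) did not reach the TSS in any library. It began 328 bp after the TSS in both stress libraries, against 513 and 479 bp in control replicates 1 and 2. The summits lay in coding sequence, 1025 and 1020 bp after the TSS in the stress libraries, against 914 and 1064 bp in the control libraries. Control replicate 1 had an additional, weaker peak with its summit in an intron 1758 bp after the TSS, at 3.44 FPM.

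The summit of NIA1 (chr1:29235721-29239484) stood apart between conditions. It lay 1510 and 1366 bp after the TSS in the stress libraries, in coding exons, whereas it lay 94 bp after the TSS in control replicate 1 and at -6 bp, just upstream of it, in control replicate 2. The pileups of NIA1 compared above were therefore heights at different places of the gene. No other gene of the set had its stress summits and control summits this far apart without overlap.

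LBD37 (chr5:26903866-26906524) differed from its relatives in that its peaks left the annotated 5′ end uncovered. Along the direction of transcription the peak began at the same base in all 4 libraries, 621 bp after the annotated TSS, and covered 71.3% to 76.7% of the gene. The coding sequence starts 1109 bp after that TSS, and the edge lies in a 5′ untranslated exon of both annotated transcripts. In 1 of these 2 transcripts an intron takes up part of the uncovered 5′ end. A shared 5′ or 3′ edge to the base in every library occurred in 144 of 11344 regions with 1 peak per library, which is 1.27%.

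Just outside this edge lies a stretch of LBD37 that resembles sequence upstream of LBD38 and of LBD39. A local alignment of LBD37 with each of them, made after the data were seen, matched 541 to 595 bp after the TSS of LBD37 with -286 to -232 bp from the TSS of LBD38, with 47 of 55 bases identical. Its end lies 26 bp from the peak edge of LBD37 in every library and 19 to 31 bp from that of LBD38. The stretch ends 514 bp before the coding start of LBD37 and 431 bp before that of LBD38. In LBD39 the resembling 30 bases lie -175 to -146 bp from the TSS and inside the peak, which begins at -318 to -271 bp.

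The 30 bases of LBD37 that aligned with both relatives are shown with their counterparts, because those of LBD37 and LBD38 lie beside the peak edge, with capitals at the bases identical in all 3 genes.
LBD37 (chr5:26905948-26905977, - strand): aCAAcTtTTCGCGGaaAcACGGAgcCGcTC
LBD38 (chr3:18513986-18514015, + strand): gCAAcTaTTCGCGGggAcACGGAgcCGtTC
LBD39 (chr4:17641071-17641100, - strand): aCAAgTgTTCGCGGagAaACGGAaaCGcTC
Of the 30 bases, 21 were identical in all 3 genes, 25 in LBD37 and LBD38, 24 in LBD37 and LBD39, and 22 in LBD38 and LBD39. The stretch was found through LBD37 only, since the best local alignment of LBD38 with LBD39 lay elsewhere, 105 to 140 bp after the TSS of LBD38 and 279 to 313 bp after that of LBD39, with 28 of 36 columns identical. The longest identical run of LBD37 and LBD38 had 12 bases and was found in 1 of 27443 upstream windows, that of LBD38 itself. Because the run was taken from that window, a count of at least 1 was fixed in advance. The count does not show that the run is rare, and whether such a match is unusual was not tested. The alignment thus pairs sequence upstream of LBD38 and LBD39 with the 5′ untranslated exon of LBD37. Whether transcripts of LBD37 in these roots start at the annotated TSS was not measured.

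**Figure D3:**
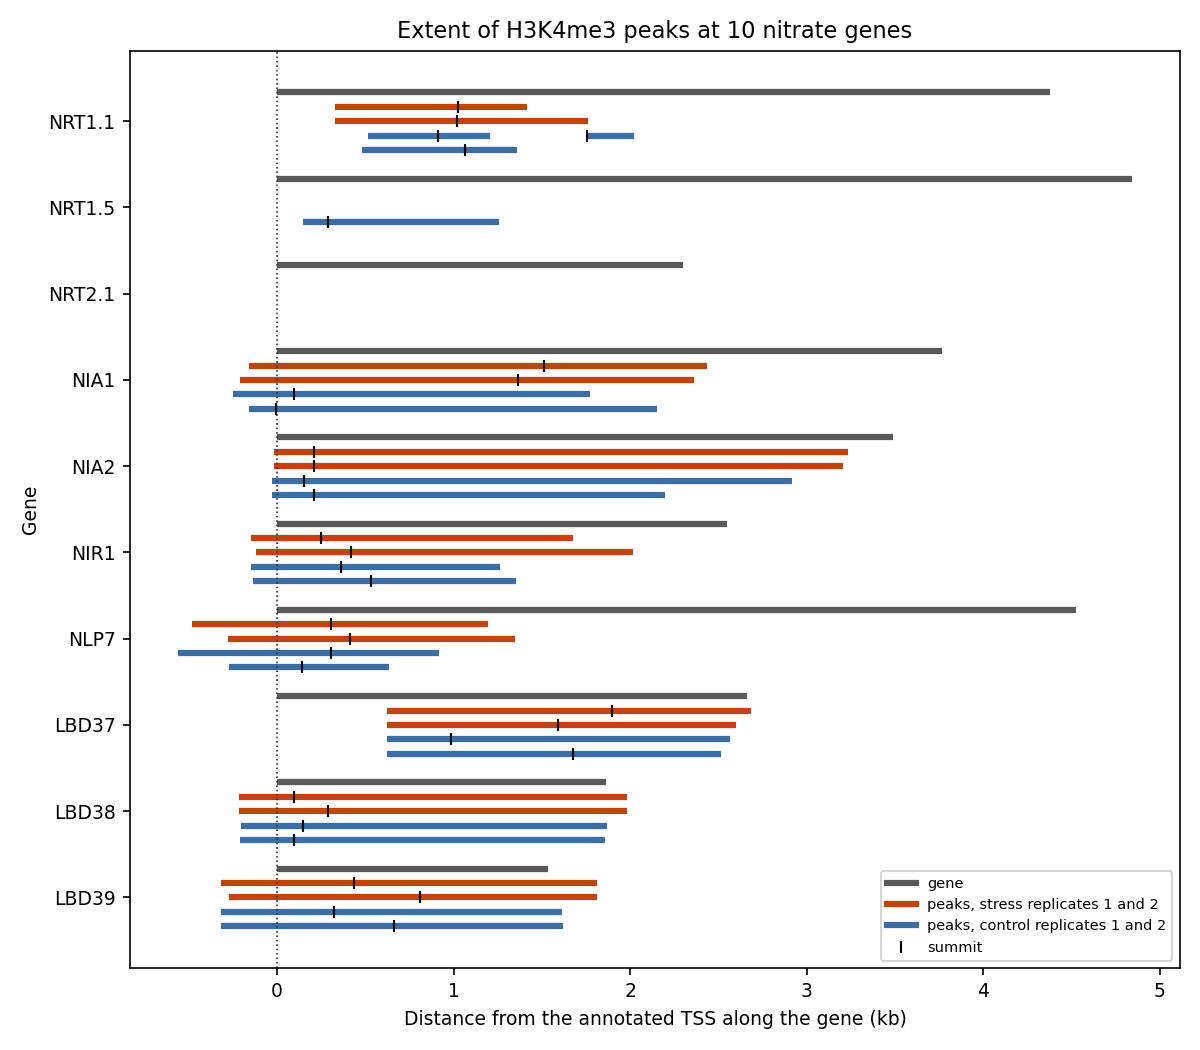
Extent of the H3K4me3 peaks along each of 10 genes, in kb from the annotated TSS, with the gene in grey, the 2 stress libraries above the 2 control libraries and a tick at each summit. The peaks of LBD37 begin at the same point, 621 bp after the TSS, in all 4 libraries, and the NIA1 summits of stress and control stand apart.

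The base pairs covered by peaks were greater in both stress libraries than in both control libraries at all 8 genes, and at 75.9% of all regions. Of the 8 genes, 0 passed the test in either direction. Over all regions 12.2% were longer and 0.109% shorter. The median log2 change of length was 0.30 at the 8 genes and 0.32 over all regions, and depth moved with it.

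NIR1 was covered over 1823 and 2136 bp in the stress libraries, against 1413 and 1487 bp in the control libraries, with a log2 change of 0.45 and a standard error of 0.102 (limma, adjusted p = 0.0571). NIA1 was covered over 2592 and 2574 bp in the stress libraries, against 2023 and 2308 bp in the control libraries (limma, log2 change 0.26, adjusted p = 0.0898). At an unadjusted p under 0.05 these 2 of the 8 genes were longer and 0 shorter, beside 43.2% and 0.486% of all regions. Without control replicate 1, 2 genes were called longer, NIA2 at a log2 change of 0.54 and NLP7 at 0.86 (limma, adjusted p = 0.0421 for each).

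The 3 LBD genes had the smallest differences in length of the 8. LBD37 was covered over 2062 and 1977 bp in the stress libraries, against 1943 and 1897 bp in the control libraries. LBD38 was covered over 2194 and 2194 bp in the stress libraries, against 2073 and 2065 bp in the control libraries. LBD39 was covered over 2132 and 2083 bp in the stress libraries, against 1934 and 1936 bp in the control libraries. Their log2 changes were 0.07, 0.08 and 0.12 in that order, below the median of all regions, and none was called.

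The other genes of nitrate use were read from a list of 72 genes of transport, signalling, assimilation and cofactor supply. Of these, 46 held a peak in every library and 12 in none, beside 54.3% and 32.1% of all nuclear protein-coding genes. A peak in each stress library but in neither control library was found at 2 genes, NRT1.4, a nitrate transporter of the leaf stalk, and ASN2, an asparagine synthetase, and the reverse occurred at 0. Over all nuclear protein-coding genes the shares were 4.66% and 0.164%. These 2 were named after their values were seen, and the greater depth of the stress libraries moved with them, a part in the result that was not tested.

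Of the 45 list genes that were tested, each in a region of its own, 7 fell and 3 rose, beside 11.9% and 10.2% of all regions, and the median log2 change was -0.05. At an unadjusted p under 0.05, 11 were lower and 5 higher, beside 18.0% and 16.9% of all regions. In signalling 5 of 22 tested genes fell and 0 rose, and in transport 1 of 7 fell. In cofactor supply 1 of 9 fell and 2 rose, and in assimilation 0 of 7 fell and 1 rose. In fold enrichment 1 of the 45 fell and 3 rose, beside 5.74% and 9.48% of all regions.

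The largest fall was at NRT1.9, a transporter that loads nitrate into the phloem of roots. It had 8.64 and 6.81 FPM in the stress libraries, against 13.1 and 13.6 in the control libraries, and the log2 change was -0.80 (limma, adjusted p = 2.03e-06). The start of a microRNA gene, AT1G18879, lies in the same region. TGA1 and TGA4 encode related bZIP factors of the nitrate response downstream of NRT1.1. TGA4 had 7.26 and 8.01 FPM in the stress libraries, against 11.3 and 13.4 in the control libraries, in a region that does not cover its TSS. Its log2 change was -0.69 (limma, adjusted p = 5.14e-05).

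TGA1 had 16.4 and 19.7 FPM in the stress libraries, against 26.5 and 25.3 in the control libraries, and the log2 change was -0.53 (limma, adjusted p = 0.000445). HHO2 and HHO3 encode repressors of the HRS1 family that act on nitrate transporter genes. HHO3 had 36.9 and 35.2 FPM in the stress libraries, against 53.4 and 58.9 in the control libraries, and the log2 change was -0.64 (limma, adjusted p = 0.0011). HHO2 had 35.7 and 31.7 FPM in the stress libraries, against 37.8 and 53.2 in the control libraries, and the log2 change was -0.42 (limma, adjusted p = 0.0305). The control libraries of HHO2 lay far apart, and its region does not cover its TSS. HHO2 and HHO3 were not called without control replicate 1 (limma, adjusted p = 0.0995 and 0.104) or without control replicate 2 (limma, adjusted p = 0.707 and 0.201), whereas NRT1.9, TGA1 and TGA4 were called with any 1 library left out.

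The other 2 genes that fell, named after their values were seen, were UPM1, an enzyme of sirohaem synthesis, and CPK30, a calcium-dependent kinase of nitrate signalling. Their log2 changes were -0.40 (limma, adjusted p = 0.00862) and -0.31 (limma, adjusted p = 0.0483). UPM1 was not called without control replicate 2, and CPK30 was called with 1 library left out only where that was stress replicate 1. Sirohaem is the cofactor of NIR1, whose own signal was not called.

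The 3 list genes that rose were GDH2, which encodes a glutamate dehydrogenase, and CNX1 and CNX5, which act in the synthesis of the molybdenum cofactor of nitrate reductase. GDH2 had 25.2 and 30.6 FPM in the stress libraries, against 22.0 and 18.9 in the control libraries, and the log2 change was 0.44 (limma, adjusted p = 0.00449). CNX1 had 14.7 and 14.2 FPM in the stress libraries, against 9.32 and 12.3 in the control libraries, and the log2 change was 0.43 (limma, adjusted p = 0.00819). CNX5 had 15.3 and 16.6 FPM in the stress libraries, against 13.1 and 12.0 in the control libraries, and the log2 change was 0.34 (limma, adjusted p = 0.0314). The region of CNX1 does not cover its TSS. None of the 3 was called without stress replicate 2, 1 without control replicate 1 (GDH2), and 1 without control replicate 2 (CNX1).

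**Figure D4:**
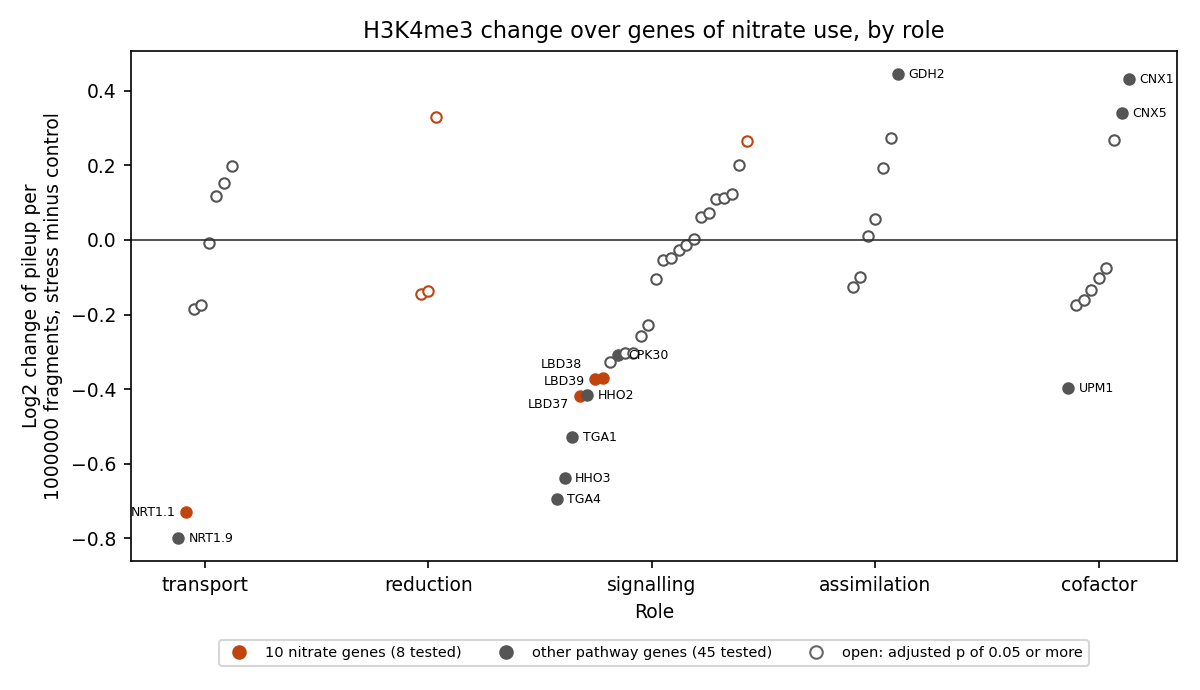
Log2 change of pileup per 1000000 fragments, stress minus control, for 8 of the 10 nitrate genes and 45 further genes of nitrate use by role, with filled points where the adjusted p was under 0.05. The filled points of the signalling genes all lie below 0, and the lowest point is NRT1.9 at -0.80.

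In length, 4 of the 45 list genes were longer and 0 shorter, beside 12.2% and 0.109% of all regions. The 4 were the auxin receptor gene AFB3, the glutamine synthetase genes GLN1;1 and GLN1;3 and a ferredoxin-NADP reductase gene of roots (AT4G05390), all named after their values were seen. The region of GLN1;3 does not cover its TSS, and that of AT4G05390 also holds the start of the protein-coding gene AT4G05400.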

How the data were processed

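H3K4me3 CUT&Tag peak tables of 2 stress and 2 control libraries were used. Per the labels, the processing named fastp 0.19.7, Bowtie2 2.3.5.1, DiffBind 2.10.0, ChIPseeker and the TAIR10 build. DiffBind compares peaks between groups, and no result of it was used here. The authors ran MACS 2.2.7.1 on the paired reads of each library without a control library, at a p cutoff of 1e-05. The deposited pileup is a signal, counted in fragments with no scaling for depth, the deposited fold enrichment is a ratio to the local background, and −log10 p and q values were deposited with each peak. How reads with several matches, such as from paralogs, were treated is not given in the sources used here.

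Pileups were scaled to 1000000 of the fragments in the file headers. A gene's region was the merged region that overlapped its span and covered the TSS, or else the nearest. Log2 values were compared with limma 3.58.1 (lmFit, eBayes with a trend) in R 4.3.3, and other steps used Python 3.11.15, pandas 2.3.3 and scipy 1.17.1. Positions were set on TAIR10.1 of RefSeq, where every peak of chromosomes 1 to 5 lies within its chromosome. The fits were tested on simulated data with the same spread in every region and a planted log2 change larger than those reported here. That test did not cover unequal spread or unequal depth. The genes, lists and tests were chosen with earlier results of these data known. The text names all 10 genes and, of the list of 72, at most 5 called genes per direction by log2 change, with exceptions stated. Alternatives covered scaling, fold enrichment, filters on q and fold, merging, the trend, a replicate block and leaving out each library.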

Additional observations from a re-analysis of the deposited data

How the results depend on the processing

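With fold enrichment in place of pileup, 0 genes of the 10 fell, 1 rose, 1 list gene fell and 684 regions fell, and the log2 change of NIA1 was -0.0302. With libraries divided by their median, 2337 regions and 11 list genes fell, and after cyclic loess, an alternative added after the data were seen, 2 of the 10 genes and 4 list genes fell, with log2 changes of 0.0349 at NIA2 and 0.0952 at NIR1. For these settings the cause was not tested. With peaks of at least 4-fold enrichment, 4 of the 10 genes had a peak in every library. With lengths centred on library medians, the log2 change of length was -0.11 at NIA1, -0.0307 at NIA2, -0.30 at LBD37, -0.29 at LBD38 and -0.25 at LBD39, none of them called.

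With 1 library left out, 0 to 4 of the 10 genes fell (0 without control replicate 1, 1 without control replicate 2) and 0 to 2 were longer (2 without control replicate 1). The list genes that fell numbered 3 to 11 (11 without stress replicate 1, 3 without control replicate 2), and those that rose 0 to 2 (0 without stress replicate 2, 1 without either control library). Over all regions, 598 to 892 rose (637 without stress replicate 1, 598 without stress replicate 2, 747 without control replicate 1) and 681 to 1740 fell (681 without stress replicate 2, 865 without control replicate 1, 753 without control replicate 2). A lone library was assumed to vary like the other group. With the replicate block, 1090 regions rose and 1268 fell, and 4 of the 10 genes fell. The deviations of libraries with the same number correlated at -0.0035 over regions. Whether such libraries shared a culture or a preparation is not given, and this value cannot tell. NRT1.1 gave no value among peaks with a −log10 q of at least 10, where 3 of the 10 genes fell.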
